A study of Homo sapiens with 4 samples.

Results

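The T-cell receptor constant segments were measured in PC3, a cell line from a bone metastasis of human prostate cancer, with and without METTL3 knockdown. The 6 genes TRBC1, TRBC2, TRGC1, TRGC2, TRAC and TRDC were taken by name from the 60544 rows of the deposited gene count table. They are 6 of its 233 T-cell receptor segment genes. The set was chosen by the increase of the TRBC2 counts in this same comparison, one of the largest in the table, and by gene name for the other 5, so the members' own changes are given as descriptions and were not tested. The control arm, labelled shNC, and the arm labelled sh812 had 2 poly(A) RNA libraries each, and the cells of both arms were grown in RPMI-1640 with fetal bovine serum and antibiotics. The study set METTL3 knockdown against control, and the labels leave sh812 as the arm that carries the knockdown. One hairpin stands for the knockdown, whether its cells are a clone or a pool is not given in the sources used here, and nothing says that the replicates were separate cultures, so p-values measure only the spread between these libraries.

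A T-cell receptor is a heterodimer of an alpha and a beta chain or of a gamma and a delta chain. In developing T cells the RAG recombinase joins a variable segment, a joining segment and, for beta and delta chains, a diversity segment, and splicing then links the joined exon to a constant segment, which carries the part of the chain next to the membrane and the membrane anchor. Constant segments can also be transcribed from unrearranged loci, which gives germline transcripts that encode no complete receptor chain. In prostate cells the gamma constant segment is known for such a transcript, from which the protein TARP is read in another frame, and TARP itself was not analysed here. METTL3 is the methyltransferase that places N6-methyladenosine (m6A) on messenger RNA.

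TRBC1 and TRBC2 are near copies. Their coding sequences were 95.5% identical, and the stretches after the coding sequence, of 230 and 222 bases, were 48.1% identical. Of the 609 windows of 150 bases, the read length, in the spliced TRBC2 transcript, 24 (3.94%) also occurred in TRBC1, and in no transcript of another gene. The corresponding share was 11.8% of the windows of TRGC2, which occurred in TRGC1, and 0% for TRAC and TRDC. An exact read from most of the TRBC2 transcript therefore matches 1 copy. How reads that fit both were counted is not given in the sources used here.

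GGACT, the commonest form of the m6A consensus, was searched for on the transcript strand. It stood once in TRAC, in the coding sequence, and in none of the other 5 constant transcripts. Of 38474 GENCODE transcripts between 700 and 1100 bases long, 60.9% held it. GAACT, another form, stood once in TRAC, after the coding sequence, and at 2 places of TRGC1, against 58.9% of the same transcripts. GAACT was not found in TRBC1, TRBC2, TRGC2 or TRDC. Other forms of the consensus were not searched for, so a transcript without GGACT and GAACT may still hold it. A match of letters is no evidence of a methylated site, and TRGC1, at 2730 bases, is longer than the transcripts of that range.

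The libraries held 31450648 to 37041330 counts. As a check of the labels, METTL3 stood at 1682 and 1379 counts in shNC and at 269 and 313 in sh812. In CPM, the counts scaled by TMM to a common library size, this was 44.0 ± 0.523 against 8.20 ± 0.766 (SD, n = 2). The log2 fold change, always sh812 over shNC, was -2.42 (SE 0.11), with a Benjamini-Hochberg adjusted p = 5.54e-14 from the quasi-likelihood test of edgeR. METTL3 overlaps TOX4 on the opposite strand. Of 16802 genes that passed the low-count filter, 10.8% were called at an adjusted p under 0.05, 5.43% as higher and 5.42% as lower in sh812. When libraries were scaled by size alone, without TMM, 29.7% of the called genes were higher, against 50.1%. The keratin genes KRT8, KRT18 and KRT19 and the prostate lineage factor HOXB13 were well above the floor in every library, while the prostate secretory genes KLK2 and KLK3 had 0 counts in all 4 libraries.

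Of the beta chain segments, TRBC2 was by far the more abundant. TRBC2 (ENSG00000211772), which encodes the second of the beta constant regions, lies on the plus strand of chromosome 7 from 142801041 to 142802748, in 4 exons of 758 bases in all. The counts were 131 and 143 in shNC and 533 and 495 in sh812. In CPM these were 3.45 and 4.52 against 15.2 and 13.8. Both sh812 libraries were high and both shNC libraries low, with no overlap. Mean CPM was 3.99 ± 0.755 in shNC and 14.5 ± 0.956 in sh812 (SD, n = 2), which is 3.64-fold, and the fitted log2 fold change was 1.87 (SE 0.16). Ranked by fold change from the highest, it was the 34th of all 16802 tested genes and the 3rd of the 10839 whose mean CPM reached 5. No gene annotated in GENCODE 29 overlaps TRBC2.

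TRBC1 (ENSG00000211751), the other beta constant segment, lies 7.67 kb before TRBC2 on the same strand, from 142791694 to 142793368. Its counts were 10 and 6 in shNC and 13 and 6 in sh812. The groups overlapped, and the means were 0.227 ± 0.0523 and 0.269 ± 0.143 CPM (SD, n = 2). TRBC1 did not pass the low-count filter. TRBC2 had 13.1 and 23.8 times as many counts as TRBC1 in the shNC libraries and 41.0 and 82.5 times as many in the sh812 libraries, and the 6 counts of 2 of the libraries leave these ratios coarse. Summed to 1 row with TRBC1 before the fit, TRBC2 had a log2 fold change of 1.82.

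TRAC (ENSG00000277734), the alpha constant segment, lies on the plus strand of chromosome 14 from 22547506 to 22552154, in 4 exons of 976 bases. Its counts were 138 and 133 in shNC and 142 and 171 in sh812, or 3.64 and 4.21 against 4.05 and 4.78 CPM. The groups overlapped. The means were 3.92 ± 0.401 and 4.41 ± 0.518 CPM (SD, n = 2), and the fitted log2 fold change was 0.17 (SE 0.20). TRAC thus had nearly the CPM of TRBC2 in the control libraries and less than TRBC2 in the knockdown libraries.

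The gamma and delta segments were at or near 0. TRGC1 and TRGC2, the gamma constant segments on the minus strand of chromosome 7, had 0 counts in all 4 libraries. By counting error alone, a count of 0 allows up to 3 counts over a group, which is 0.0431 CPM in shNC and 0.0423 CPM in sh812. This floor does not cover reads that fit both TRGC1 and TRGC2 or another gene, since their treatment is not known. TRDC, the delta constant segment on chromosome 14, had 2 counts in sh812 replicate 1 and 0 in the other libraries, which is under the same floor, and it lies within AC244502.1, annotated on the opposite strand. No fold was formed for these 3 genes.

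Of the 6 constant segments, 2 passed the low-count filter, TRBC2 and TRAC. TRBC2 was called, and nothing is read from this beside the 10.8% of all genes, since the comparison chose it. TRBC2 was also the 1 member whose groups did not overlap, an arrangement found in 53.6% of the genes tested.

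**Figure D1:**
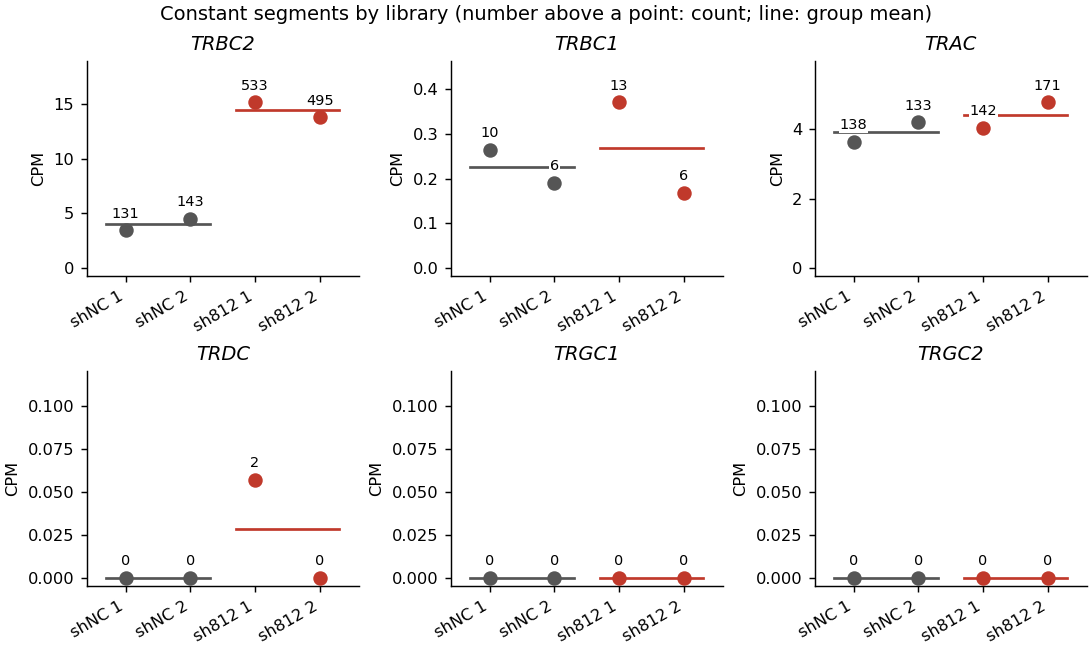
CPM of each constant segment in the 4 libraries, 1 point per library (grey shNC, red sh812), with the count above the point and a line at the group mean; each panel has its own axis. TRBC2 stood at 3.45 and 4.52 CPM in shNC and 15.2 and 13.8 CPM in sh812, TRBC1 and TRAC overlapped between the groups, and TRGC1 and TRGC2 were at 0.

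Levels of different genes were compared per kilobase of exon. In shNC the mean was 5.26 ± 0.996 CPM per kilobase (SD, n = 2) for TRBC2, 4.02 ± 0.411 for TRAC and 0.298 ± 0.0688 for TRBC1. The TRBC2 libraries stood at 4.56 and 5.97 and the TRAC libraries at 3.73 and 4.31, so the libraries of these neighbours in the order did not overlap, and their means differed by more than the SD of TRBC2. In sh812 the means were 19.1 ± 1.26 CPM per kilobase for TRBC2, 4.52 ± 0.531 for TRAC and 0.354 ± 0.189 for TRBC1 (SD, n = 2). Per kilobase, TRBC2 lay above 59.5% of the tested genes in shNC and above 84.2% in sh812, and TRAC above 53.8% and 56.9%. Within each library, which needs no scaling between libraries, TRBC2 was at 1.22 and 1.38 times the level of TRAC per kilobase in shNC and at 4.83 and 3.73 times in sh812.

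Both are short transcripts, and short genes as a class stood slightly higher in sh812. The 1353 tested genes under 1000 exon bases had a median log2 fold change of 0.11 and the 3072 genes over 8000 bases one of -0.080. With each library's trend on length removed, a step added after the data were seen, TRBC2 had a log2 fold change of 1.72 and TRAC one of 0.030. Over all 15 alternatives, those that left out 1 library included, TRBC2 ran from 1.68 to 2.07 and TRAC from 0.030 to 0.29. The lowest TRBC2 value came without shNC replicate 1 and the highest without shNC replicate 2.

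**Figure D2:**
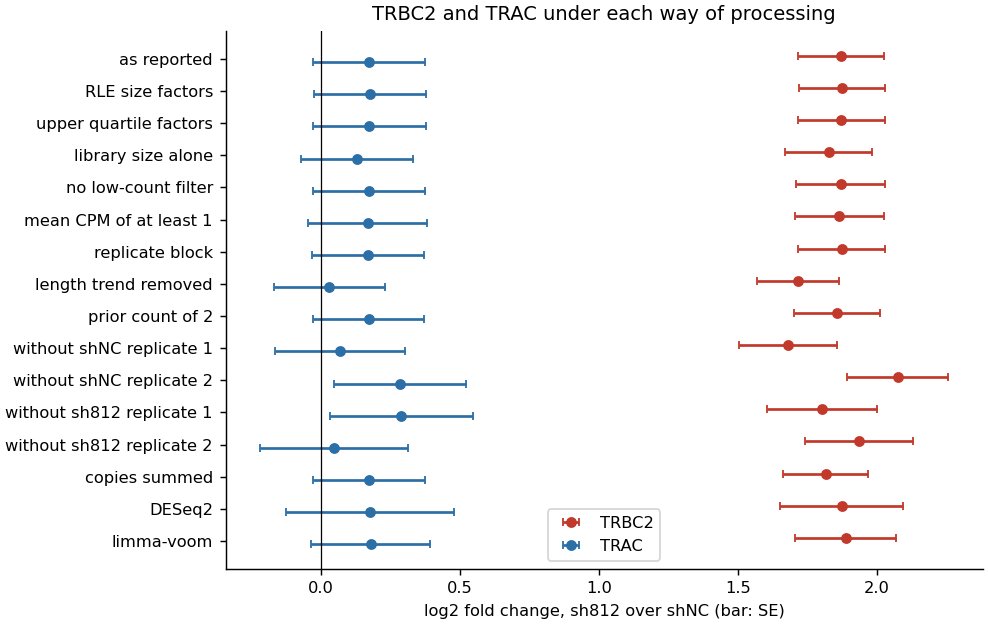
Fitted log2 fold change of TRBC2 (red) and TRAC (blue), sh812 over shNC, as reported and under each of 15 alternatives; bars are the SE. TRBC2 stayed between 1.68 and 2.07 and TRAC between 0.030 and 0.29.

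A rearranged receptor transcript would carry a variable and a joining segment beside the constant one. The table lists 227 variable, diversity and joining segment genes. Of these, 199 had 0 counts in all libraries, none passed the low-count filter, and the other 28 held 159 counts in all. Per library the sum was 50 and 24 counts in shNC and 38 and 47 in sh812, so the groups overlapped. The 60 alpha joining segments had 0 counts in every library. Joining segments are short, those of the beta locus shorter than a read of 150 bases, so a read on one also reaches its neighbours. How reads that overlap several genes were counted is not given in the sources used here. Few counts on joining segments therefore do not show that few reads reached them. The alpha variable segments had 10 and 0 counts in shNC and 2 and 6 in sh812, with TRAV18 at 8 counts in shNC replicate 1 and TRAV39 at 2 and 4 counts in the sh812 libraries. The gamma variable segments had 11 and 6 counts in shNC and 0 and 1 in sh812, and each of these genes had 4 counts or fewer in all. The 10 delta variable, diversity and joining segments had 0 counts.

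In the beta locus, the 8 segments of the TRBJ2 cluster, which start 3.585 to 4.676 kb before TRBC2, summed to 8 and 7 counts in shNC and to 26 and 13 in sh812. Both sh812 libraries were above both shNC libraries, at 0.552 ± 0.267 CPM against 0.216 ± 0.00737 CPM (SD, n = 2), but the sh812 libraries differed from each other by more than the group means did. The 6 segments of the TRBJ1 cluster, which serve TRBC1, had 0 counts in every library. The 69 beta variable segments had 21 and 11 counts in shNC and 10 and 27 in sh812, with no order between the groups. Among the beta segments other than the constant ones, the highest totals were the 14 counts each of TRBJ2-2P and TRBV8-2 and the 12 of TRBV30. TRBV30, the variable segment that lies behind TRBC2 on the opposite strand, had 2 and 0 counts in shNC and 0 and 10 in sh812. None of these single segments was tested.

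**Figure D3:**
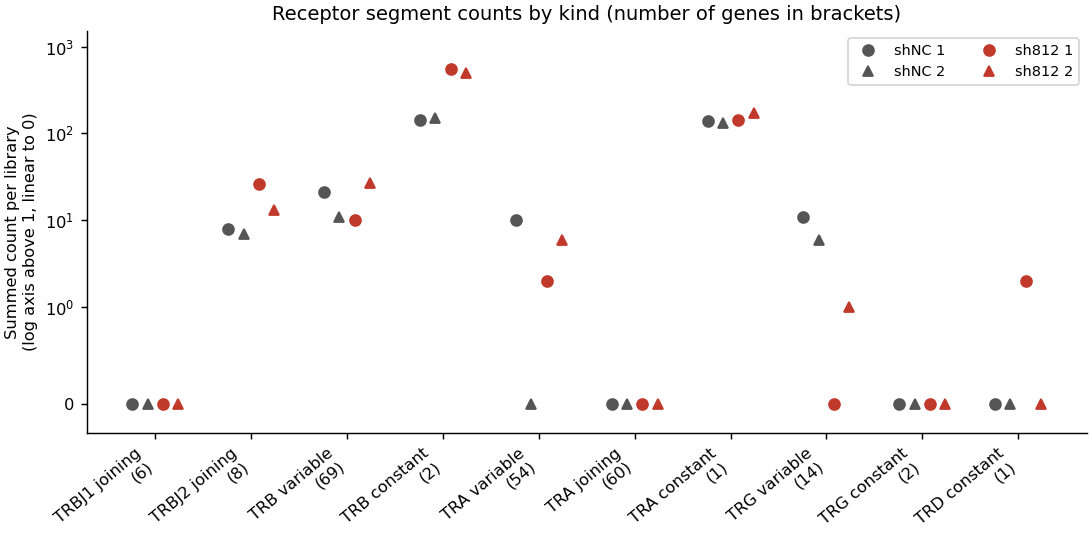
Summed counts per library of receptor segments by locus and kind, 1 symbol per library (grey shNC, red sh812; circle replicate 1, triangle replicate 2), on an axis that is logarithmic above 1 and linear to 0, with the number of genes in brackets. The TRBJ2 joining segments stand at 8 and 7 counts in shNC and at 26 and 13 in sh812, while the TRBJ1 and alpha joining segments are at 0 in every library.

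Genes that reach within 500 kb of a constant segment gave the genomic surroundings. There were 82 of them outside the receptor segments, of which 25 were tested, 4 called higher and 2 called lower, beside the 5.43% and 5.42% of all genes. Their median log2 fold change was 0.049, against -0.0056 for all genes tested. EPHB6, a kinase-defective Eph receptor whose start lies 54.0 kb after that of TRBC2, rose. It had 142 and 94 counts in shNC and 331 and 284 in sh812, or 3.36 ± 0.545 and 8.68 ± 1.06 CPM (SD, n = 2). Its log2 fold change was 1.36, with an SE of 0.18 and an adjusted p = 1.72e-05 in edgeR. In GENCODE 29, no gene outside the receptor segments is annotated between TRBC2 and EPHB6. The annotation release behind the counts is not given in the sources used here and may differ.

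Around this pair the region was nearly silent. Outside the receptor segments, the 6 genes before TRBC2, among them the trypsinogen genes PRSS1 and PRSS2, had at most 2 counts each over the 4 libraries together. Of the 14 genes between EPHB6 and GSTK1, 12 had 0 counts, and the highest was the calcium channel gene TRPV6 with 7 counts in all. The next abundant genes lay more than 400 kb from TRBC2. GSTK1, a glutathione transferase gene, was at 65.8 ± 1.84 CPM and then 74.2 ± 3.10 CPM (SD, n = 2), a log2 fold change of 0.17 (adjusted p = 0.118 in edgeR). CASP2, a caspase gene, had one of 0.08 (adjusted p = 0.558 in edgeR).

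**Figure D4:**
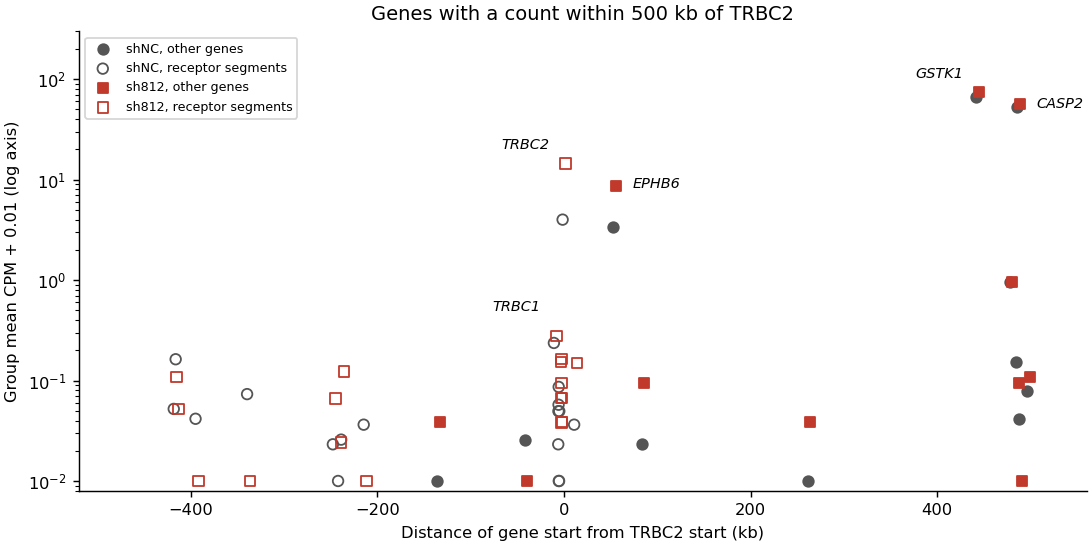
Group mean CPM plus 0.01, on a log axis, of genes with at least 1 count within 500 kb of TRBC2, against the distance of their start from the TRBC2 start in kb (grey circles shNC, red squares sh812; open symbols receptor segments; the symbols of the groups are set slightly apart sideways). TRBC2 and EPHB6, 54.0 kb apart, stand above the other genes up to GSTK1, and both are higher in sh812.

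On chromosome 14, DAD1, a subunit of the oligosaccharyltransferase that lies next to TRAC, had 236 ± 15.9 and 248 ± 4.79 CPM (SD, n = 2), a log2 fold change of 0.07 (adjusted p = 0.546 in edgeR). Of the 18 tested genes there, 3 were called higher and 1 lower. MRPL52, a mitochondrial ribosomal protein gene, had a log2 fold change of 0.32 (adjusted p = 0.00504 in edgeR), OXA1L, a mitochondrial membrane insertase gene, 0.26 (adjusted p = 0.00515 in edgeR), and the proteasome subunit gene PSMB5 0.22 (adjusted p = 0.0159 in edgeR). LRP10, a lipoprotein receptor family gene, had -0.18 (adjusted p = 0.0475 in edgeR). Without sh812 replicate 1 none of these 4 genes was called (adjusted p = 0.257, 0.191, 0.345 and 0.543 in edgeR, in the order above). Without sh812 replicate 2, OXA1L, PSMB5 and LRP10 were not called (adjusted p = 0.0515, 0.103 and 0.2 in edgeR), and MRPL52 was. With the length trend removed, PSMB5 and LRP10 were not called (adjusted p = 0.188 and 0.115 in edgeR), and LRP10 was not called with RLE size factors (adjusted p = 0.0605 in edgeR). Near the gamma segments, 1 of 3 tested genes was called, VPS41, a vacuolar sorting gene, at a log2 fold change of -0.28 (adjusted p = 0.0134 in edgeR), and its call was lost without shNC replicate 1, sh812 replicate 1 or sh812 replicate 2 (adjusted p = 0.0787, 0.111 and 0.159 in edgeR).

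The partners a receptor chain needs at the cell surface were at or near 0. Of the 5 genes of the CD3 and receptor complex list, CD3D, CD3E, CD3G and PTCRA had 0 counts in all 4 libraries, and CD247 had 4 counts in 1 library of each group. RAG2 and DNTT, which act in rearrangement, had 0 counts. RAG1 had 48 and 63 counts in shNC and 41 and 39 in sh812, with a log2 fold change of -0.52 (adjusted p = 0.426 in edgeR). RAG1 overlaps RAG2, which is annotated on the opposite strand.

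Of 24 genes of T-cell receptor signalling, 15 were tested, 2 were called higher and 0 lower, beside 5.43% and 5.42% of all genes tested. Their median log2 fold change was 0.0085, near the -0.0056 of all genes. At an unadjusted p under 0.05 in edgeR 0 genes of the list were lower too, and DESeq2 and limma-voom called 0 lower. LCK, the kinase that starts signalling at the receptor in T cells, rose. Its counts were 68 and 58 in shNC and 122 and 141 in sh812, or 1.81 ± 0.0291 and 3.71 ± 0.329 CPM (SD, n = 2). Its log2 fold change was 1.03, with an SE of 0.25 and an adjusted p = 0.00948 in edgeR. CSK, the kinase that restrains LCK, also rose, from 82.0 ± 6.97 to 97.0 ± 0.504 CPM (SD, n = 2), or by 0.24 on the log2 scale (SE 0.07; adjusted p = 0.0249 in edgeR). The other tested members, such as the kinase FYN at 0.01 (adjusted p = 0.969 in edgeR), were not called.

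The call of LCK was lost without sh812 replicate 2 (adjusted p = 0.0949 in edgeR). That of CSK was lost with library size alone (adjusted p = 0.0639 in edgeR) and without shNC replicate 1, sh812 replicate 1 or sh812 replicate 2 (adjusted p = 0.126, 0.216 and 0.176 in edgeR).

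The list of factors known to bind receptor gene enhancers and promoters in T cells held 19 genes, of which 15 were tested, 1 was called higher and 1 lower, beside the same 5.43% and 5.42% of all genes. The median log2 fold change of the list was 0.049. TCF3, which encodes the E proteins E12 and E47, rose from 116 ± 0.188 to 136 ± 2.06 CPM (SD, n = 2), or by 0.23 on the log2 scale (SE 0.06; adjusted p = 0.0149 in edgeR). RUNX3, a Runt family factor, fell from 204 and 122 counts to 88 and 94, or from 4.62 ± 1.08 to 2.57 ± 0.0847 CPM (SD, n = 2). Its log2 fold change was -0.85, with an SE of 0.23 and an adjusted p = 0.016 in edgeR. ETS1 was the most abundant of the list, at 335 ± 6.86 and 318 ± 1.64 CPM (SD, n = 2; adjusted p = 0.438 in edgeR). RUNX3 was not called by DESeq2 (adjusted p = 0.0839), without shNC replicate 1 (adjusted p = 0.184 in edgeR) or without sh812 replicate 1 (adjusted p = 0.0821 in edgeR). TCF3 was not called without sh812 replicate 1 or 2 (adjusted p = 0.155 and 0.225 in edgeR).

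**Figure D5:**
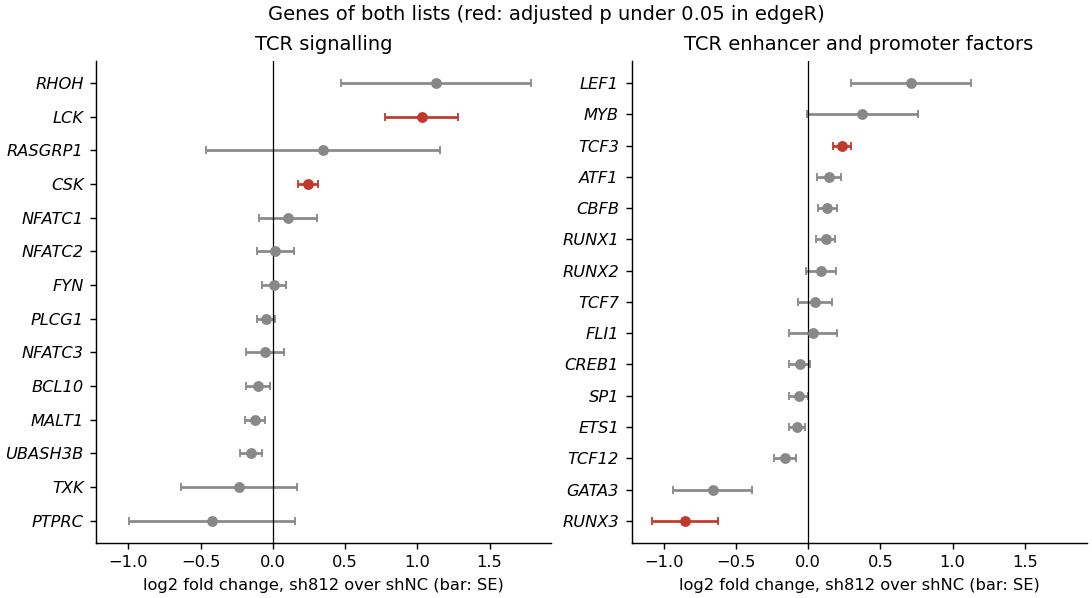
Fitted log2 fold change, sh812 over shNC, of genes of the receptor signalling list (left) and of the enhancer and promoter factor list (right); bars are the SE and red marks an adjusted p under 0.05 in edgeR. LCK (1.03), CSK (0.24), TCF3 (0.23) and RUNX3 (-0.85) are marked.

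Markers of blood cells were measured beside these values. Of 13 T-cell markers, CD2, CD3D, CD3E, CD3G, CD6, CD8B and THEMIS had 0 counts in every library. The summed level was 96.9 to 99.3 CPM in shNC and 92.8 to 99.5 CPM in sh812, nearly all of it IL7R, a cytokine receptor gene. Without IL7R the sum was 1.29 and 1.36 CPM in shNC and 1.71 and 2.04 CPM in sh812, from CD7 and CD8A for the most part. CD7 had 34 and 32 counts in shNC and 46 and 49 in sh812 (adjusted p = 0.49 in edgeR), and CD8A had 9 and 9 and then 14 and 22 (adjusted p = 0.404 in edgeR). The 4 B-cell markers summed to 9 and 24 counts in shNC and 4 and 1 in sh812, and the 4 NK-cell markers to at most 4 counts in a library. The 4 myeloid markers summed to 0.98 to 1.40 CPM in shNC and 0.883 to 1.17 CPM in sh812. Of the leukocyte genes PTPRC, CORO1A and LCP1, PTPRC had 12 to 32 counts in a library. CORO1A had 282 and 302 counts in shNC and 326 and 318 in sh812 (adjusted p = 0.74 in edgeR). LCP1, which many cancer lines express, had 1706 and 1512 counts in shNC and 1201 and 1227 in sh812. LCP1 was lower in sh812 (log2 fold change -0.44, adjusted p = 0.00108 in edgeR). The 14 immunoglobulin constant segments, the B-cell counterparts of the genes described here, had 4 to 10 counts in a library, and 10 of them had 0 in all. In bulk RNA, more cells with a transcript and more transcript per cell cannot be told apart.

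The genes whose centred log2 CPM profile over the 4 libraries lay nearest to that of TRBC2 were sought among 10734 tested genes that have a symbol and reach a mean CPM of 5. They were ONECUT3, at a Euclidean distance of 0.318, NTSR1 at 0.606, CALB1 at 0.606, ANXA10 at 0.617 and MMP3 at 0.713. ONECUT3, a homeobox factor gene, had 126 and 106 counts in shNC and 524 and 455 in sh812, close to the counts of TRBC2. NTSR1, the gene of a neurotensin receptor, had 522 and 453 counts in shNC and 1189 and 1323 in sh812. With 4 libraries in 2 groups, likeness of profile means little more than a rise of like size.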

How the data were processed

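Gene counts of 4 PC3 poly(A) libraries (2 shNC, 2 sh812) were analysed. The authors deposited whole-number counts per gene, not normalized. Per the submitters' processing notes, fastp, STAR 2.7.1a, featureCounts and DESeq2 were used with hg38. Annotation release, strand setting and treatment of reads that fit several places are not given in the sources used here. The members and lists were chosen with earlier results of these data known.

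The test was edgeR 4.0.16's quasi-likelihood test (R 4.3.3) on the counts of genes kept by filterByExpr, with TMM factors, a prior count of 0.125 and Benjamini-Hochberg adjustment over 16802 genes. The call threshold was an adjusted p of 0.05. SE was derived from the F statistic. CPM was computed on TMM-adjusted sizes. Exon lengths, positions and sequences came from GENCODE 29 (GRCh38), where 16635 of the tested genes matched by identifier. Totals were 31450648 to 37041330 counts. The chi-square statistic per gene between replicates was 8.43 (shNC) and 4.51 (sh812), so each library counted as 1 replicate. Intervals and floors cover counting error only.

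Named genes were the 6 members, METTL3, called genes of each list (at most 4 a side) and of the surroundings, the receptor segments of highest count, markers at 0, and the 5 profiles most like TRBC2. Other list members are quoted as examples chosen after their values were seen. Some results are not reported here. Alternatives were RLE, upper quartile and library size scaling, other filters, DESeq2 1.42.0, limma-voom (limma 3.58.1), a replicate block, each library left out, copies summed, a prior count of 2 and removal of each library's lowess trend on exon length (span 0.3). The fit was tested on simulated counts.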

Additional observations from a re-analysis of the deposited data

How the results depend on the processing

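Removal of the length trend was added after seeing the data, and the other alternatives were planned. The log2 fold changes of TRBC2 and TRAC moved by less than the spread between replicates in each of the 11 alternatives that kept all libraries. The 4 fits that left out 1 library cannot be judged by that spread. Dropping 1 of 2 replicates shifts a group mean by an amount that the same spread sets. Among all genes, 561 were called higher with library size alone against 912, and 585 were called lower by DESeq2 against 910. For the signalling list, 1 gene was called higher with library size alone against 2. For the factor list, 2 were called higher with the length trend removed against 1, and 0 were called lower by DESeq2 against 1. Among the genes surrounding the constant segments, 1 was called lower with RLE size factors and 1 with the length trend removed, against 2. The cause was not tested. EPHB6 and METTL3 were called in all of their alternatives. Leaving out 1 library leaves a group with 1 sample, which is then assumed to vary like the others. These fits called 261 to 1703 genes higher and 326 to 1549 lower. They called 0 to 2 signalling genes higher and 0 to 1 lower, 0 to 1 factors higher and 0 to 1 lower, and 1 to 7 surrounding genes higher and 0 to 2 lower. TRBC2 ran from 1.68 to 2.07 and TRAC from 0.046 to 0.29 in them. Both groups carry replicate numbers 1 and 2. Libraries with 1 number deviated from their group means with a correlation of 0.0164 over genes. This gives no sign of pairing but cannot exclude it. In the fit with the replicate block, TRBC2 had a log2 fold change of 1.87 and TRAC one of 0.17, and 1003 genes were called higher and 998 lower. METTL3, EPHB6 and the genes called on the signalling and factor lists and named near the constant segments kept their calls there, and 5 surrounding genes were called higher against 4. At 6 to 13 counts a library, TRBC1 had a log2 fold change of 0.23 with an SE of 0.91 in the fit with no low-count filter, so its depth leaves a wide range.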
